A study of Mus musculus with 16 samples.

Results

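The immediate early transcription factors are a small group of stress-inducible genes, followed here in the atria of mice after an infarct of the ventricle. Atrial RNA of male C57BL/6 mice, 10 weeks old at surgery, was hybridised to 16 single-colour arrays. The mice had sham surgery, or had the left anterior descending artery (LAD) tied off. This vessel supplies much of the left ventricle. The sham group had 4 arrays (sham 1 to 4). The infarct groups had 4 arrays each on day 1 (numbered 11 to 14 in the labels), day 3 (31 to 34) and day 7 (71 to 74) after surgery. The labels name no transgene, mutant allele or drug, and all groups share the strain, the sex and an operation. When after surgery the sham tissue was collected is not stated, although a 0-day group appears in the series title. The labels do not say that each array is a separate mouse, so the p-values measure the spread between these samples. The arrays hold whole atrial tissue, in which fewer cells of a type and less RNA per cell cannot be told apart.

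The group was given as a list of 10 genes, Fos, Fosb, Fosl1, Fosl2, Jun, Junb, Egr1, Atf3, Myc and Ier3, out of 30062 genes with a row of 1 gene symbol. Of the 10 genes, 9 had such a row. The row that names Junb also names Prdx2, so no value is given for Junb. Genes entered the test if they exceeded the array's own median signal on at least 4 of 16 arrays, which held for 8 members and for 18389 genes in all. Fosb was just inside this limit with 4 arrays, and Fosl1 was outside it with 0.

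Immediate early genes are transcribed within minutes of a stimulus from existing signalling proteins, with no new protein synthesis, and their RNAs are usually short-lived. Fos, Fosb, Fosl1 and Fosl2 pair with Jun family proteins to form AP-1, which binds DNA in many genes of injury, inflammation and matrix turnover. Egr1 is a zinc finger factor induced by growth factors and stretch through serum response factor, Atf3 is a bZIP factor of stress responses, and Myc drives ribosome production and growth together with its partner Max. Ier3 is not itself a DNA-binding factor, but an early response protein that affects cell survival and kinase signalling. In the heart, members of the group are known as early responders to ischaemia, stretch and pressure overload.

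The 130 bases before the start of 5 members are shown so that the known elements in them can be set beside the members' signals. Sequences are from RefSeq (GRCm38.p6), which held promoters of 7 of the 10 members. Capitals mark matches on either strand to 7 motifs searched in the 250 bases before each start: GGGCGG (the Sp1 site), TATAAA (the TATA box), TGACGT (the core of the cAMP response element), TGACATCA (an element known from the Jun promoter), TGANTCA (the AP-1 site), CACGTG (the E-box bound by Myc and Max) and the CArG box bound by serum response factor. The list of motifs was adjusted after the sequences had been read.
Fos, chr12:85473760-85473889, plus strand: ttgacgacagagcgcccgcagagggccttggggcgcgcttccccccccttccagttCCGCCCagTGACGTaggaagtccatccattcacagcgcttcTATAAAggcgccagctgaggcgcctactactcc
Jun, chr4:95052223-95052352, minus strand: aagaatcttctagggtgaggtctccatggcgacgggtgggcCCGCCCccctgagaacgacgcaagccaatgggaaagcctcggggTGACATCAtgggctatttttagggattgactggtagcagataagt
Atf3, chr1:191183334-191183463, minus strand: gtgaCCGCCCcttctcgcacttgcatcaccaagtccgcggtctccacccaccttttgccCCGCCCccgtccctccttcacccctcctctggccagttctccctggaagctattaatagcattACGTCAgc
Fosl2, chr5:32136342-32136471, plus strand: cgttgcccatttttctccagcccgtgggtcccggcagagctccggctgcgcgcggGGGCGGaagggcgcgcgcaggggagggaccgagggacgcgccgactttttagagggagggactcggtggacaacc
Ier3, chr17:35821583-35821712, plus strand: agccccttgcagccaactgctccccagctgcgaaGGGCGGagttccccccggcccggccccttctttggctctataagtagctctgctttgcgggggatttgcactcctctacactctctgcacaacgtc

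The Fos promoter had TGACGT at 66 to 61 bases and TATAAA at 33 to 28 bases before the start. Jun had TGACATCA at 45 to 38 bases before the start. Atf3 had TGACGT, read on the opposite strand, at 8 to 3 bases before the start. Fosl2 and Ier3 held no motif of the set other than GGGCGG, which all 5 promoters had. Among 27025 promoters, the 250-base window held GGGCGG in 32.9%, TATAAA in 13.0%, TGACGT in 6.56%, TGACATCA in 3.02%, TGANTCA in 6.87%, CACGTG in 6.05% and the CArG box in 1.40%. These matches are a description of letters, and binding was not measured. Bases outside the 250-base window were not searched, so a motif without a match, such as the CArG box, may lie farther away.

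Some facts of the whole series touch the members. Values are the deposited log2 signals, in which a difference of 1 is a doubling of signal, and levels of different genes cannot be set against each other because rows differ in their probes. The median of 5222 negative control rows was 4.47 to 4.53 in sham, 4.69 to 4.87 on day 1, 4.93 on day 3 array 31 and 4.44 to 4.60 on the other day 3 and all day 7 arrays. Arrays 13 (day 1) and 31 (day 3) separated positive from negative controls least, at 0.755 and 0.743 on a scale that ends at 1, against 0.793 to 0.825 on the other 14 arrays. Their median correlations with their own groups were 0.987 and 0.955, against 0.994 to 0.998. Markers of atrial muscle were present: Sln, Myl7 and Kcnj3 had sham means of 17.97, 17.97 and 13.48, although Bmp10 was not above background in sham. The mean over the 10 markers of the atrial list was 13.64 to 13.76 in sham. That list was drawn up with Myh6, Tnnt2 and Actc1, which are not limited to atrial muscle, so its mean does not measure atrial identity. Ventricular markers such as Myl3 and Myh7 were present too, at 16.15 and 13.55 in sham. The labels name no scan date or processing batch.

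**Figure D1:**
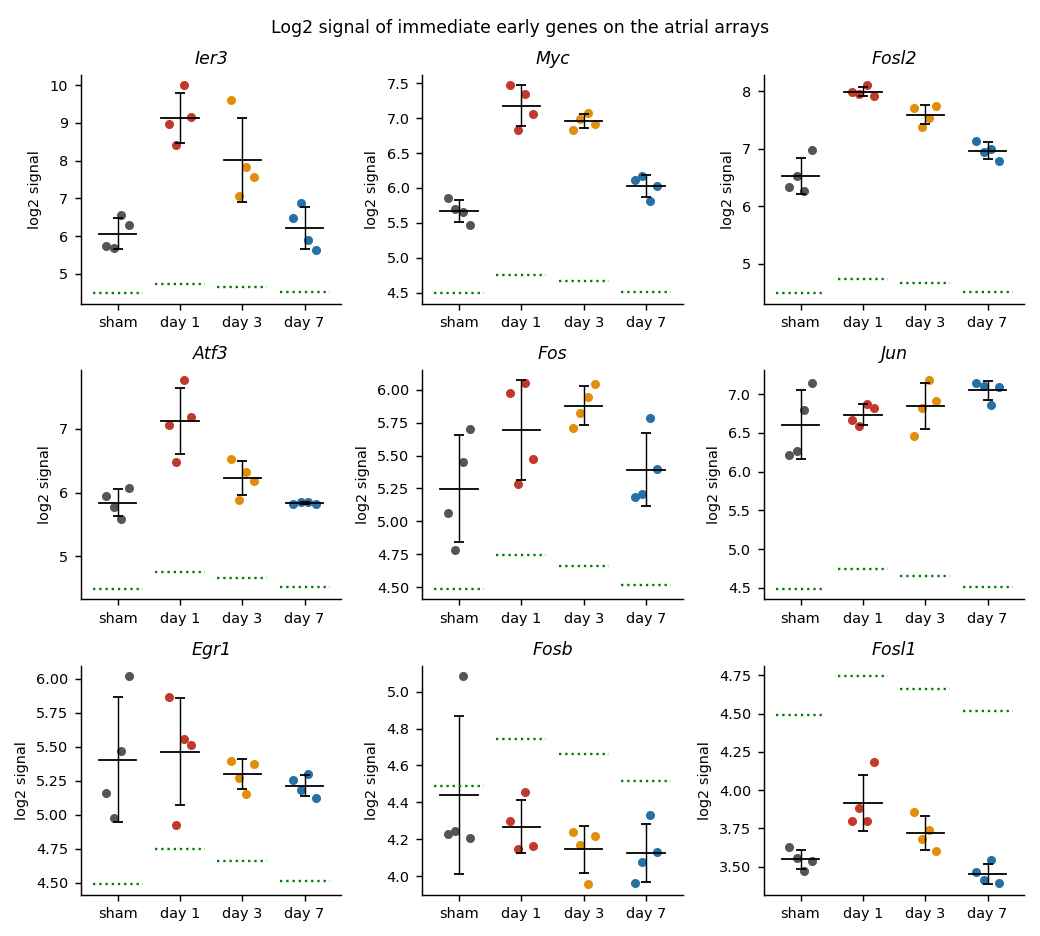
Log2 signal (vertical axis, a separate scale for each gene) of 9 members in sham and on days 1, 3 and 7, with 1 point for each array, the group mean (wide line) and the SD (error bar, n = 4). Dotted lines give the mean negative control median of the group. Ier3, Myc, Fosl2 and Atf3 stand above all sham points on day 1, while Fosl1 lies below the dotted line in every group.

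On day 1 the members fell into those that rose, those that were not called and those not above background. Ier3, Myc, Fosl2 and Atf3 rose by 3.07, 1.51, 1.46 and 1.28 on the log2 scale. Fos, Jun and Egr1 were not called, and Fosb and Fosl1 lay at background. Of the 8 tested members, 4 were called higher and 0 lower by limma at an adjusted p under 0.05, and the values of the same 4 did not overlap those of sham. Over all genes tested, 47.2% were called on day 1, 24.9% higher and 22.2% lower, and 30.8% were higher without overlap. The share of calls that were higher was 52.9% on the deposited scale, 36.3% after quantile normalisation, 38.5% after centring each array and 27.1% after subtracting each array's negative control median. The same 4 members were called higher under each of these scalings. The median difference of the 8 members was 0.86, against 0.06 for all genes.

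Ier3 had the largest difference among the members. Its signals were 5.75, 5.69, 6.56 and 6.28 on sham arrays 1 to 4, and 8.98, 8.41, 10.00 and 9.15 on arrays 11 to 14. The lowest day 1 array thus lay well above the highest sham array. The difference was 3.07 ± 0.48 (SE, adjusted p 0.000211). Array 13, the highest of its group, was also the day 1 array with the weakest control separation, and without arrays 13 and 31 the difference was 2.78 (adjusted p 1.22e-05).

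Myc signals were 5.85, 5.70, 5.65 and 5.47 in sham and 7.48, 6.83, 7.35 and 7.07 on day 1. All 4 day 1 arrays lay above all sham arrays, and the difference was 1.51 ± 0.13 (adjusted p 1.73e-06). Fosl2, a Fos family member that lacks the strong activation domain of Fos, read 6.34, 6.52, 6.27 and 6.97 in sham and 7.99, 7.96, 8.11 and 7.91 on day 1. The day 1 arrays lay within 0.20 of each other while the sham arrays spanned 0.70, with sham 4 the highest. The Fosl2 difference was 1.46 ± 0.14 (adjusted p 3.51e-06).

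Atf3, which represses many inflammatory genes, read 5.95, 5.77, 5.58 and 6.07 in sham and 7.07, 6.48, 7.76 and 7.19 on day 1. The groups did not overlap, array 13 was the highest and array 12 the lowest of day 1. The difference was 1.28 ± 0.21 (adjusted p 0.000281), and without arrays 13 and 31 it was 1.07 (adjusted p 0.000102).

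The classical first responders showed no call on day 1, and Fos and Egr1 lay nearer to background than Jun. Above the negative control median of its array, Fos read 0.315 to 1.17 in sham and 0.60 to 1.26 on day 1. Egr1 read 0.51 to 1.49 in sham and 0.24 to 1.16 on day 1 above that median. Jun read 1.74 to 2.61 and 1.91 to 2.11 above it. Fos read 5.06, 4.78, 5.45 and 5.70 in sham and 5.97, 5.28, 6.05 and 5.47 on day 1. Arrays 12 and 14 lay within the sham range and arrays 11 and 13 above it. The difference was 0.44 ± 0.21 (95% interval -0.01 to 0.90, adjusted p 0.0938). It was called with array weights (0.51, adjusted p 0.0361), without sham 4 (0.59, adjusted p 0.0395) and without array 12 (0.58, adjusted p 0.0389).

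Jun, the main partner of the Fos proteins, read 6.21, 6.26, 6.80 and 7.14 in sham and 6.66, 6.59, 6.87 and 6.82 on day 1. All day 1 values lay inside the sham range, which sham 4 and sham 3 extended upwards. The difference was 0.13 ± 0.19 (95% interval -0.27 to 0.54, adjusted p 0.571), and it was -0.12 after subtracting the negative control median.

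Egr1 read 5.16, 4.98, 5.47 and 6.02 in sham and 5.87, 4.92, 5.56 and 5.51 on day 1. The groups overlapped, and sham 4 and array 12 were the highest and the lowest of all 8 values. The difference was 0.06 ± 0.21 (95% interval -0.38 to 0.50, adjusted p 0.827), and it turned negative under each other scaling. The intervals of Jun and Egr1 hold 0, and a p that misses the threshold does not show equal levels.

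Fosb read 4.23, 4.24, 5.08 and 4.21 in sham and 4.15 to 4.46 on day 1, 3.96 to 4.24 on day 3 and 3.96 to 4.33 on day 7. Only sham 3 was above the negative control median of its array. Fosl1 read 3.47 to 3.63 in sham and 3.80 to 4.19, 3.60 to 3.86 and 3.39 to 3.54 on days 1, 3 and 7, at or below that median on all 16 arrays. No difference is read for either gene.

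**Figure D2:**
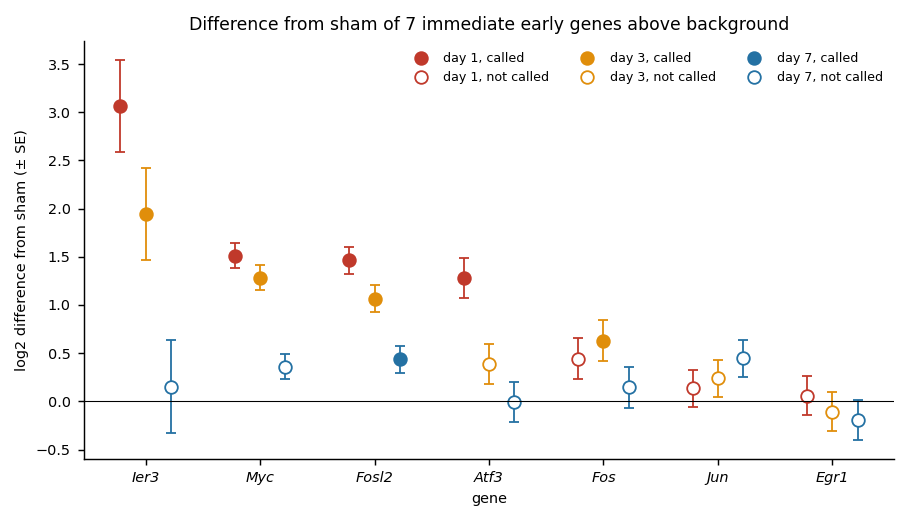
Log2 difference from sham (vertical axis, ± SE) of the 7 members above background on days 1, 3 and 7. Filled points were called at an adjusted p under 0.05 and open points were not: Ier3, Myc and Fosl2 are filled on days 1 and 3, Atf3 on day 1, Fos on day 3 and Fosl2 on day 7.

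On day 3 the set of called members had changed in part. Of the 8 tested members, 4 were called higher (Ier3, Myc, Fosl2 and Fos) and 0 lower, and the values of these 4 did not overlap sham. Over all genes, 43.8% were called on day 3, 23.5% higher and 20.2% lower, and 22.3% were higher without overlap. The higher share of calls was 53.8% on the deposited scale and 37.7%, 36.9% and 37.4% after quantile normalisation, centring and negative control subtraction. The member median was 0.51, against 0.08 for all genes. The comparisons of days 1, 3 and 7 use the same 4 sham arrays, so they are not independent of each other.

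Ier3 read 9.59, 7.06, 7.83 and 7.57 on arrays 31 to 34. Array 31 was the highest, at the level of day 1, while arrays 32 to 34 lay between sham and day 1. The difference from sham was 1.94 ± 0.48 (adjusted p 0.00457), and 1.42 (adjusted p 0.00592) without array 31. Myc read 6.84, 6.99, 7.07 and 6.92, a narrow range in which array 31 was the lowest. Its difference from sham was 1.29 ± 0.13 (adjusted p 5.32e-06).

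Fosl2 read 7.70, 7.38, 7.53 and 7.75 on day 3, below every day 1 array and above every sham array. Its difference from sham was 1.06 ± 0.14 (adjusted p 3.57e-05). Fos read 5.71, 5.82, 5.95 and 6.04, with the lowest array only just above sham 4, at 5.70. The Fos difference was 0.63 ± 0.21 (adjusted p 0.0255). That call was lost under each of the other 3 scalings (0.46 to 0.50, adjusted p 0.0673 to 0.108) and without sham 1, sham 2, array 33 or array 34 (0.47 to 0.61, adjusted p 0.0534 to 0.0892).

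Atf3 read 6.52, 5.89, 6.32 and 6.18 on day 3, with array 32 inside the sham range. The difference of 0.38 ± 0.21 was not called (adjusted p 0.154), but was called with array weights (0.35, adjusted p 0.0362). Jun read 6.46, 6.82, 7.18 and 6.91 and differed from sham by 0.24 ± 0.19 (adjusted p 0.321). Both genes overlapped between day 3 and sham. Egr1 read 5.40, 5.27, 5.15 and 5.38, all inside the sham range, with a difference of -0.11 ± 0.21 (adjusted p 0.692).

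By day 7 most members lay near sham. Only Fosl2 was called, 1 of 8 tested members, against 24.9% of all genes called, 14.9% higher and 9.94% lower. The higher share of calls was 60.0% on the deposited scale, 43.9% after quantile normalisation, 37.9% after centring and 67.8% after negative control subtraction. No member stood without overlap, against 38.3% of all genes in either direction. The member median was 0.15, against -0.01 for all genes. The 95% intervals, which are not adjusted for the number of genes, lay above 0 for Fosl2, Jun and Myc. They were 0.14 to 0.73, 0.04 to 0.85 and 0.08 to 0.64, and those of the other tested members held 0.

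Fosl2 read 7.13, 6.95, 6.99 and 6.78 on arrays 71 to 74, of which 72 and 74 lay below sham 4. The difference was 0.44 ± 0.14 (adjusted p 0.0324). The call was lost after quantile normalisation (0.34, adjusted p 0.133), centring (0.33, adjusted p 0.0910) and negative control subtraction (0.41, adjusted p 0.0847), with no filter on low values, and without sham 1, 2 or 3 or array 71, 72 or 73 (0.35 to 0.44, adjusted p 0.0635 to 0.108). Myc read 6.11, 6.17, 5.81 and 6.03, of which array 73 lay below the highest sham array. Its difference of 0.36 ± 0.13 was not called (adjusted p 0.0590), but was called without array 31 (adjusted p 0.0437) and without array 11, 12, 73 or sham 1 (adjusted p 0.0292 to 0.0481).

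Jun read 7.14, 7.10, 6.86 and 7.09, the highest group mean of this gene (7.05 ± 0.12, SD, against 6.60 ± 0.45 in sham). The difference of 0.45 ± 0.19 was not called (adjusted p 0.106), and without sham 4 it was 0.62 (adjusted p 0.0190). Atf3 read 5.82, 5.85, 5.86 and 5.82, an SD of 0.02 around 5.84, which is the sham mean to 2 decimals. The difference was -0.0045 ± 0.21 (95% interval -0.45 to 0.44, adjusted p 0.996).

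Ier3 read 6.49, 6.87, 5.89 and 5.64 on day 7, in and slightly around the sham range, with a difference of 0.15 ± 0.48 (adjusted p 0.895). Its 95% interval, -0.88 to 1.18, is the widest of the members. Fos read 5.19, 5.21, 5.79 and 5.40 (0.14 ± 0.21, adjusted p 0.717). Egr1 read 5.26, 5.18, 5.30 and 5.12 (-0.19 ± 0.21, adjusted p 0.583), the lowest mean of its 4 groups with an SD of 0.08 against 0.46 in sham. None of these 3 genes separated day 7 from sham.

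Between the infarct days, 1 member was called lower on day 3 than on day 1, Atf3, by -0.90 ± 0.21 (adjusted p 0.0167). Over all genes 8.12% were called in this comparison and 2.16% were lower. Array 32 bears on the Atf3 call: without it the difference was -0.78 (adjusted p 0.0621). Ier3 differed by -1.12 ± 0.48 and was not called (adjusted p 0.194), but without array 31 the difference was -1.65 (adjusted p 0.00383). Fosl2 differed by -0.40 ± 0.14 with no overlap (adjusted p 0.0991), and was called without array 31 (-0.44, adjusted p 0.0339) and without sham 4 (adjusted p 0.0324). Myc differed by -0.22 ± 0.13 (95% interval -0.51 to 0.06, adjusted p 0.369).

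From day 3 to day 7, 3 members fell: Ier3 by 1.79 (adjusted p 0.0255), Myc by 0.92 (adjusted p 0.000612) and Fosl2 by 0.63 (adjusted p 0.00942). Over all genes 12.7% were called and 8.59% were lower. The Ier3 call was lost with only the 2 groups compared in the fit (adjusted p 0.108), without array 73 (-1.68, adjusted p 0.0631) or array 74 (-1.60, adjusted p 0.0754), and the Fosl2 call after negative control subtraction (-0.48, adjusted p 0.0737). Comparing day 7 with day 1, 4 members were lower: Ier3 by -2.91 ± 0.48, Atf3 by -1.29 ± 0.21, Myc by -1.15 ± 0.13 and Fosl2 by -1.03 ± 0.14 (adjusted p 3.35e-05 to 0.000593). Over all genes 26.4% were called in that comparison and 12.7% were lower.

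The order of the group means therefore differed among members. Ier3, Myc and Fosl2 were ordered day 1, day 3, day 7 and sham from high to low, and the neighbours day 1 and day 3 were not called apart in any of the 3. Day 7 and sham were not called apart for Ier3 and Myc. Atf3 was ordered day 1, day 3, sham and day 7, and only the first step was called. Fos was highest on day 3, then day 1, day 7 and sham, with no pair of neighbours called. Jun was ordered day 7, day 3, day 1 and sham, and Egr1 day 1, sham, day 3 and day 7, with no pair called for either gene.

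The members also varied together in different ways. Across the 16 arrays, which share the 4 groups, the signals of Fosl2 and Myc had a Pearson correlation of 0.90, Atf3 and Ier3 0.88, Fosl2 and Ier3 0.88, and Myc and Ier3 0.85. Deviations from the group means leave out the group differences. Their correlations were 0.77 for Fos and Egr1, 0.64 for Atf3 and Ier3 and 0.54 for Fosl2 and Egr1. They were 0.54 for Fos and Jun and 0.53 for Jun and Egr1. The value for Fosl2 and Myc was then -0.24. Fos, Jun and Egr1 were each highest on sham 4 and next highest on sham 3 among the sham arrays.

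Signs of other cells moved with Ier3 and Atf3. The mean of 10 neutrophil markers was 4.26 to 4.42 in sham, 9.001 on array 13 and 7.88 to 7.93 on the other day 1 arrays, 8.25 on array 31 and 5.45 to 5.53 on the other day 3 arrays, and 4.46 to 4.59 on day 7. Arrays 13 and 31 had the highest Ier3 and Atf3 signals of their groups on the deposited scale. They also had the highest negative control medians of all arrays, 4.87 and 4.93. With each array's median subtracted, Ier3 stayed highest on arrays 13 and 31, and Atf3 on array 13. Atf3 on day 3 was then highest on array 33 (1.80, against 1.60 on array 31). Of 7 neutrophil markers tested, 6 were called higher on days 1 and 3 and 0 on day 7, while the granule genes Ngp, Ltf and Camp were not above background on any array. The part of neutrophils in the Ier3 and Atf3 values was not tested.

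Markers of resident and other recruited cells moved too. For these counts and those of the neutrophil markers, the shares of all genes called higher were 24.9%, 23.5% and 14.9% on days 1, 3 and 7. The shares called lower were 22.2%, 20.2% and 9.94%. Of 10 monocyte and macrophage markers, 9, 10 and 10 were called higher on days 1, 3 and 7. Their mean level was 7.17 to 7.46 in sham and 10.37 to 10.94 on day 1. It was 10.51 on array 31, 11.34 to 11.69 on the other day 3 arrays and 9.98 to 11.37 on day 7. Of 9 muscle markers of the atrial list tested, 5 were called lower on days 1 and 3 and 0 on day 7. Those 5 were Kcna5, Kcnj3, Myl7, Sln and Tbx5 on both days. The mean level over all 10 such markers was 13.64 to 13.76 in sham and 11.43 to 12.42 on day 1. It was 10.58 on array 31, 12.64 to 12.95 on the other day 3 arrays and 12.66 to 13.50 on day 7. All infarct arrays thus lay below every sham array. Without arrays 13 and 31, 3 of these markers were called lower on day 7. Of 8 fibroblast markers, 5 were called lower on day 1, 3 higher and 1 lower on day 3, and 6 higher and 1 lower on day 7. Their mean level was 10.65 on array 31 and 12.53 to 12.73 on the other day 3 arrays. Of 5 ventricular markers, 4, 4 and 2 were lower on days 1, 3 and 7, and of 7 endothelial markers 1 was higher and 3 lower on day 1. On day 3, 2 endothelial markers were called higher and 0 lower, but 0 and 1 after quantile normalisation, 1 and 1 after centring and 0 and 0 after negative control subtraction. On day 7, 1 was called higher. The part of these shifts in the members' values was not tested.

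**Figure D3:**
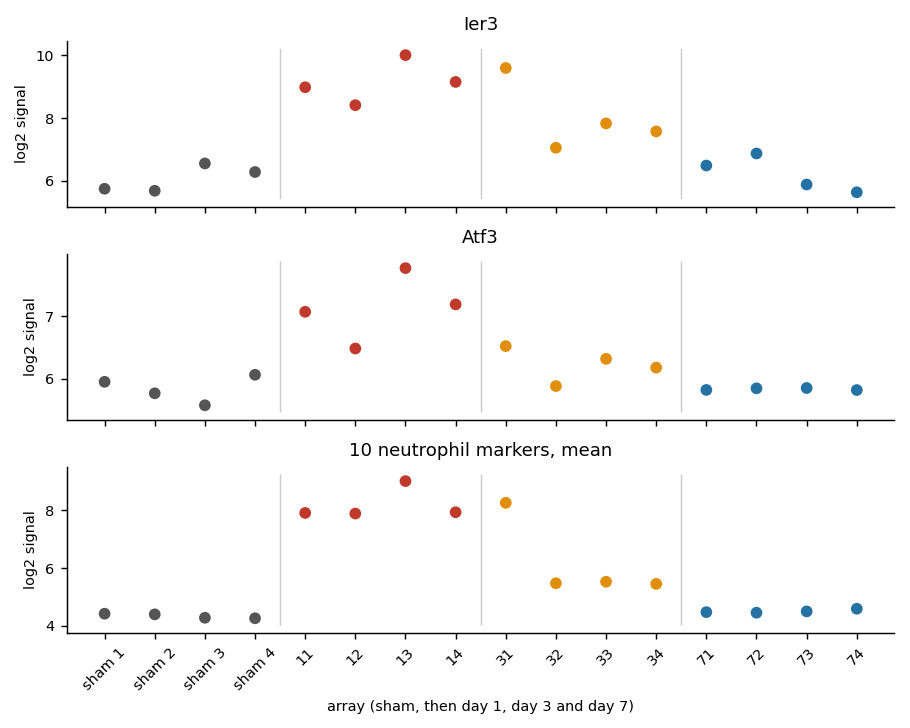
Log2 signal of Ier3 (top), Atf3 (middle) and the mean of 10 neutrophil markers (bottom) on each of the 16 arrays, in the order sham, day 1, day 3 and day 7. Arrays 13 and 31 hold the highest point of their groups in all 3 panels. With each array's negative control median subtracted, array 33 was the highest of day 3 for Atf3.

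The relatives of the members were described through lists of genes chosen by function. Their counts stand beside the shares of all tested genes, of which 24.9%, 23.5% and 14.9% were called higher on days 1, 3 and 7. Over all genes 22.2%, 20.2% and 9.94% were called lower on those days. Of 14 other AP-1 and bZIP factors, 5 were called higher and 2 lower on day 1, a split that became 1 and 4 after negative control subtraction and 4 and 4 after quantile normalisation. Atf4, the master factor of the integrated stress response and an inducer of Atf3, rose by 1.10 ± 0.13 (adjusted p 2.27e-05). Cebpd, a factor of acute inflammation, rose by 0.70 ± 0.14 (adjusted p 0.00119), and Mafk, a small Maf protein, by 0.56 ± 0.11 (adjusted p 0.000838). On day 3 the list had 2 higher and 3 lower, with Atf4 at 0.59 ± 0.13 (adjusted p 0.00207) and Atf2 at -0.38 ± 0.08 (adjusted p 0.00173). On day 7 there was 1 higher, Cebpd at 0.42 ± 0.14 (adjusted p 0.0401), and 0 lower. After quantile normalisation, centring and negative control subtraction 0 were higher on day 7, and 2, 4 and 0 were lower.

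Of 23 other immediate early genes, 12 were higher and 2 lower on day 1, or 6 and 6 after negative control subtraction. Of the calls, 1, Arc, was at background in both groups. Ccn1, a secreted matrix protein of wound healing, rose by 3.62 ± 0.39 (adjusted p 1.11e-05). The growth inhibitor Btg1 rose by 2.83 ± 0.42 (adjusted p 0.000139) and the stress sensor Gadd45g by 2.73 ± 0.31 (adjusted p 1.60e-05). On day 3, 7 were higher and 2 lower, with Ccn1 at 2.72 ± 0.39 (adjusted p 8.38e-05) and Rgs1, a leukocyte regulator of G protein signalling, at 2.35 ± 0.32 (adjusted p 5.77e-05). On day 7, 4 were higher and 0 lower, and Ccn1 was still at 2.25 ± 0.39 (adjusted p 0.000902). Egr3 and Egr4, close relatives of Egr1, were not above background in any group.

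The inhibitors that shut immediate early signalling off had calls mainly on the higher side. Of 15 tested, 7, 6 and 6 were called higher on days 1, 3 and 7 and 0, 1 and 0 lower. After negative control subtraction 5, 3 and 4 were higher and 0, 1 and 0 lower. Nfkbia, the inhibitor of NF-kB, rose by 1.22 ± 0.24 on day 1 (adjusted p 0.00106), Tnfaip3, which ends the same pathway, by 1.10 ± 0.13 (adjusted p 1.83e-05), and the ERK phosphatase Dusp5 by 1.00 ± 0.15 (adjusted p 0.000135). Another ERK phosphatase, Dusp6, led on day 3 at 1.11 ± 0.15 (adjusted p 5.30e-05) and stood at 0.99 ± 0.15 on day 7 (adjusted p 0.000337). Zfp36l1, which promotes decay of short-lived RNAs, led on day 7 at 1.39 ± 0.30 (adjusted p 0.00352).

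The kinases and serum response factor cofactors upstream of the group had no settled direction. Of 18 tested, 6 were higher and 4 lower on days 1 and 3 and 3 higher and 1 lower on day 7, but after quantile normalisation 3 and 8, 4 and 9, and 3 and 5. Without arrays 13 and 31 they were 5 and 6, 6 and 4, and 5 and 6. The turn after quantile normalisation was not particular to this list. Over all genes the higher share of calls was 52.9%, 53.8% and 60.0% on days 1, 3 and 7. After quantile normalisation it was 36.3%, 37.7% and 43.9%. Map2k6, which activates p38, fell by 1.29 on day 1 (adjusted p 2.09e-05) and by 1.03 on day 3 (adjusted p 9.65e-05). Rps6ka3, a kinase activated by ERK, rose by 0.90 ± 0.13 on day 1 (adjusted p 0.000146), and Elk3, a partner of serum response factor, by 0.96 ± 0.18 on day 7 (adjusted p 0.00133).

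Genes known as targets of AP-1 and Egr1 were mostly higher on days 1 and 3. Of 14 tested, 11 were higher and 1 lower on days 1 and 3 and 6 higher and 2 lower on day 7, and the counts of higher genes were the same under each other scaling. Genes not above background in sham held at their bounds, the medians were 2.32, 1.84 and 0.63. Hmox1, which degrades haem, rose by 5.49 ± 0.40 on day 1 (adjusted p 4.54e-07), 5.57 ± 0.40 on day 3 (adjusted p 4.74e-07) and 2.29 ± 0.40 on day 7 (adjusted p 0.000875). Timp1, an inhibitor of matrix proteases, rose by 4.67 ± 0.40 on day 1 (adjusted p 1.54e-06), and Hbegf, a ligand of the EGF receptor, by 4.51 ± 0.42 (adjusted p 3.07e-06). Cd44, a hyaluronan receptor, was at 3.10 ± 0.32 on day 3 (adjusted p 5.32e-06) and 1.74 ± 0.32 on day 7 (adjusted p 0.00120). Many of these genes are also expressed by macrophages, and the part of recruited cells in their values was not tested.

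The integrated stress response, of which Atf3 is a member by way of Atf4, had 6 of 11 genes higher and 1 lower on day 1, with 1 of the calls, Sesn2, at background in both groups. On day 3 there were 4 higher and 2 lower and on day 7 2 and 2. Chac1, called lower on days 3 and 7, was not above background on any infarct day. Trib3 was not above background in any group. The cystine transporter Slc7a11, not above background in sham, rose by at least 2.16 on day 1, set against the negative controls. That bound was not tested, and the limma difference of the deposited values was 2.495 ± 0.25 (adjusted p 5.68e-06). Asns, which makes asparagine, rose by 1.38 ± 0.15 (adjusted p 1.03e-05), and Slc3a2, the transporter's heavy chain, by 1.35 ± 0.15 (adjusted p 1.31e-05). Psat1, of serine synthesis, was at 1.08 ± 0.10 on day 3 (adjusted p 2.91e-06), while Cth, of cysteine synthesis, fell by 0.95 on day 3 (adjusted p 1.58e-06) and by 0.83 on day 7 (adjusted p 1.26e-05).

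Myc's partners and its known targets moved differently. Of 9 partners, 1 was higher and 2 lower on day 1, 0 and 3 on day 3, and 0 and 1 on day 7, and more were lower after centring (5, 5 and 4). Mxd1, which competes with Myc for Max, rose by 2.59 ± 0.33 on day 1 (adjusted p 4.43e-05). Max itself fell by 0.63 on day 1 (adjusted p 0.00161), by 1.05 on day 3 (adjusted p 2.42e-05) and by 0.68 on day 7 (adjusted p 0.00173). Mycn and Mxd3 were not above background in any group.

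Of 19 Myc targets, 14 were higher and 3 lower on day 1, 13 and 1 on day 3, and 1 and 2 on day 7, and 10, 8 and 1 were higher after negative control subtraction. Calls at background in both groups were Cad and Ppan on day 1 and Cad on day 3. Nop58, of ribosome assembly, rose by 3.37 ± 0.25 on day 1 (adjusted p 5.86e-07) and 2.50 ± 0.25 on day 3 (adjusted p 4.88e-06). Srm, which makes spermidine, rose by 1.67 ± 0.18 (adjusted p 8.83e-06) and Odc1, the first enzyme of polyamine synthesis, by 1.65 ± 0.20 on day 1 (adjusted p 3.25e-05). Npm1, a nucleolar protein, was at 1.33 ± 0.11 on day 3 (adjusted p 1.36e-06) and 0.59 ± 0.11 on day 7 (adjusted p 0.00163). The targets called lower were Ccnd2, Eif4e and Tfrc on day 1, Eif4e on day 3, and Eif4e and Tfrc on day 7. Tfrc was at -1.47 ± 0.37 on day 7 (adjusted p 0.00989) and Eif4e at -0.59 ± 0.21 (adjusted p 0.0497). The median over the list was 0.92, 0.55 and -0.01 on the 3 days, against 0.06, 0.08 and -0.01 for all genes.

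**Figure D4:**
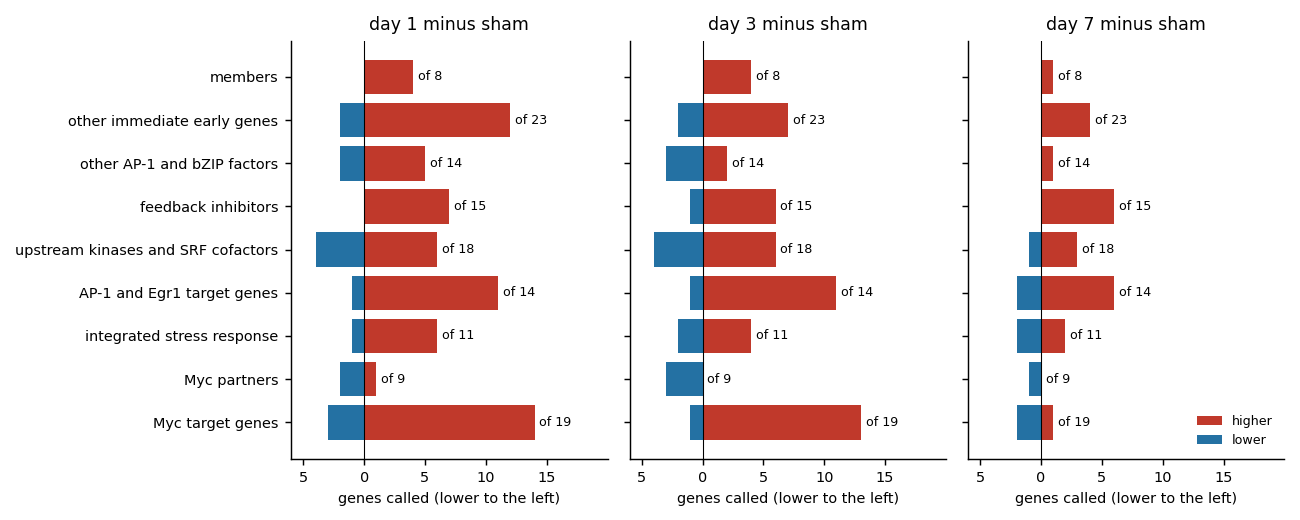
Number of genes called higher (right of 0) and lower (left of 0) than sham on days 1, 3 and 7 in the members and 8 lists of related genes, on the deposited scale, with the number tested beside each bar. AP-1 and Egr1 targets had 11 of 14 higher on days 1 and 3, and Myc targets fell from 14 of 19 to 1 of 19 by day 7. The split of the kinases and of the other AP-1 factors turned towards lower under another scaling, as did that of all genes on day 1.

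Genes whose signal over the 16 arrays was most like a member's were named by Pearson correlation, as a description that follows the groups they share. Ier3 was most like the glucose transporter gene Slc2a1 (0.979), then Trmt6 and Fbxl5 (0.965 each). Slc2a1 means were 8.61, 12.05, 10.36 and 8.56 in sham and on days 1, 3 and 7. Myc was most like the translation initiation factor gene Eif4a1 (0.981), Eif4a-ps4 (0.979) and Spryd3 (0.978). Eif4a-ps4 is named as a pseudogene of the Eif4a family, so its probes may also detect Eif4a1, and its value is uncertain.

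Fosl2 was most like Atp13a3 (0.964), the matrix protease gene Adamts1 (0.946) and Nop58 (0.946). Atf3 was most like Tgm1 (0.974), Wdr43 (0.961) and Dusp5 (0.959), and Dusp5 is among the feedback inhibitors above. The genes that were not called on day 1 had looser company: Fos was most like Ier2 (0.789), Snord118 (0.784) and Zfp36 (0.782), Egr1 like Ier2 (0.678), Btg2 (0.658) and Mir378c (0.652), and Jun like Prss23 (0.830), Rspry1 (0.801) and Tor1a (0.793). Fosb, mostly at background, had 0.809 at most, with Porcn.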

How the data were processed

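Values were the log2 signals of the authors' deposited value table, 72688 rows on 16 arrays, made with Affymetrix Expression Console per the submitters' processing notes. Its version, background correction, summarisation and scaling are not stated there. The labels name the Mouse Genome 430 2.0 design, but the rows carry names of transcript clusters, so the array design is uncertain. No precision beyond the number of arrays is known.

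Rows with 1 gene symbol were kept (30604, and 2146 rows had several), 1121 symbols were updated to GRCm38.p6 names, and the row with the highest mean was taken where a gene had several (430 genes). Groups came from the labels, and no replicate number is shared between groups. In limma 3.58.1 (R 4.3.3), 1 mean per group was fitted to all 16 arrays (lmFit, and eBayes with a variance trend), with 6 comparisons and Benjamini-Hochberg adjustment over 18389 genes in each. A call is an adjusted p under 0.05. The code was tested on simulated data. A group is not above background where all 4 values are at or below the negative control median of their array, a rule chosen after the data were seen, and a bound sets the other group against that median. Array medians (4.17 to 4.61) lie below most negative control medians, so the filter keeps some genes at background. Control separation is the fraction of pairs of a positive and a negative control in which the positive is brighter.

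The members, the gene lists and the tests were chosen with earlier results of these data known. Named list genes are, per list and day, the 3 called genes with the largest difference and no overlap with sham, of which those with the clearest known roles are printed, and the 3 genes most like each member exclude clone and predicted names. Alternatives were quantile normalisation, centring, array weights, no filter or a stricter one, no variance trend, the mean of rows, 2 groups only, other thresholds, leaving out each array, and, added after the data were seen, subtraction of each array's negative control median. Rows naming several genes, such as that of Junb, were not analysed here.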

Additional observations from a re-analysis of the deposited data

Results flagged for a closer look

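In 2 cases an array stood apart from its group in a member, by a rule that chance meets in about 1 in 20 groups. The rule was applied to 9 members in each of the 4 groups, so about this many cases are met by chance. Fosb on sham 3 had a gap to the nearest array of 0.956 of the group's range, above Dixon's 95% critical value for 4 arrays, and it was the only Fosb value above background. Jun on day 7 array 73 also passed that value, with a gap of 0.835 of a range that was only 0.27 wide.

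The infarct days, compared with each other, differed in 4 members. Atf3 differed by -0.90 between day 3 and day 1. Between day 7 and day 3 the difference was -0.63 for Fosl2, -0.92 for Myc and -1.79 for Ier3. Between day 7 and day 1 it was -1.03 for Fosl2, -1.29 for Atf3, -1.15 for Myc and -2.91 for Ier3. Each rests on the limma contrast between the 2 days, which is also the difference between their effects against the shared sham arrays.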

How the results depend on the processing

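For 42 differences of 7 members, 1176 alternative values over 28 settings gave 1104 with the same direction and the same side of the threshold, 32 that lost a call, 22 that gained one and 18 that turned direction. On day 1, 4 or 5 members were called higher under every setting run, the differences of Ier3, Myc, Fosl2 and Atf3 kept their calls, and so did those of Ier3, Myc and Fosl2 on day 3. The cause of the changes that follow was not tested.

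After negative control subtraction 1 member, Fosb, was called lower on day 1 and on day 3, and on day 3 also after centring, but its signal was at background. On day 7 the count of members called higher was 0 after quantile normalisation, centring or negative control subtraction, with no filter, at an adjusted p under 0.01 or with a difference of at least 1. It was 3 with array weights (Fosl2, Jun, Myc) and 2 with only the compared groups or without arrays 13 and 31 (Fosl2, Myc), and 0 to 2 with single arrays left out. From day 1 to day 3 the count called lower was 3 with array weights, 2 without arrays 13 and 31, 0 with only the compared groups or with the stricter thresholds, and 0 to 3 with single arrays left out. From day 3 to day 7 it was 1 with a difference of at least 1, and from day 1 to day 7, 1 member (Jun) was called higher with only the compared groups.

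Differences that turned direction were small and not called. On day 1 Jun was -0.12 after negative control subtraction, and Egr1 was -0.0622 after quantile normalisation, -0.0337 after centring, -0.1983 after negative control subtraction and -0.0849 to 0.26 with single arrays left out. On day 3 Egr1 was -0.25 to 0.10 with single arrays left out. On day 7 the ranges were -0.0102 to 0.29 for Fos, -0.33 to 0.0134 for Egr1, -0.0918 to 0.0698 for Atf3 (0.0125 with array weights) and -0.0639 to 0.35 for Ier3. From day 1 to day 3 Jun was -0.0065 to 0.23 with single arrays left out, and from day 3 to day 7 Egr1 was 0.0059 after quantile normalisation and 0.0613 after negative control subtraction.

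Counts over all genes moved too. The 1494 calls between days 1 and 3 became 6530 without array 31, 5797 without arrays 13 and 31, 7435 with array weights, 254 with only the compared groups, 912 after negative control subtraction and 809 to 909 without array 11, 32, 33 or 34. The 2329 between days 3 and 7 became 5157, 861, 3805, 1120 and, without array 71, 1456 (array weights, compared groups, without arrays 13 and 31, negative control subtraction). The 4853 between days 1 and 7 became 9585 with array weights, 9232 without array 31 and 8155 without arrays 13 and 31. The 4570 on day 7 became 8274 with array weights, 7117 with only the compared groups, 7478 without arrays 13 and 31 and 2708 after negative control subtraction. At an adjusted p under 0.01 the 8672 calls of day 1 became 5243, the day 7 calls 2670, and those between days 1 and 3, 3 and 7, and 1 and 7 became 576, 956 and 2437. With a difference of at least 1 the 6 counts were 2866, 2848 and 1258 on days 1, 3 and 7 and 426, 491 and 1203 between the days. No paired analysis was possible because the groups share no replicate numbers.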

Other observations

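Within the sham group, sham 4 was the highest of the 4 arrays in 5 of the 8 tested members, in 15 of 23 other immediate early genes (65.2%) and in 5 of 15 feedback inhibitors (33.3%). Over the 3 lists together it was highest in 25 of 46 genes (54.3%), against 27.3% of the 18389 genes tested. Sham 2 was the lowest in 17 of the 46 (37.0%), against 18.8% of all genes. These counts were made after the sham values of Fos, Jun and Egr1 had been seen, and they are a description with no test. When the sham tissue was collected is not stated, and whether the sham arrays differ in their time after surgery was not tested.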
